A study of Mus musculus with 6 samples.

Results

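The mitochondrial ribosomal proteins are the proteins of the ribosome that works inside mitochondria. Their genes were taken as the protein-coding rows of the deposited expression table whose symbol begins with Mrpl or Mrps followed by a digit. This rule goes by name and not by measured values, but was chosen with earlier results of these data known. The rule found 75 genes among the 41095 rows of the table, 47 with Mrpl symbols (large subunit) and 28 with Mrps symbols (small subunit). The symbols Mrpl48, Mrps21 and Mrpl58 matched no row; the older symbol of Mrpl58, Ict1, was in the table and is described with the genes of other symbols.

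The cells were CD8+ T cells, the cytotoxic arm of the T lymphocytes, from the spleens of wild-type (WT) mice whose strain and age are not given in the labels. Cells of both groups were selected with magnetic beads and cultured for 72 h on plates that had been covered for 24 h by antibodies to CD3 (5 µg/mL) and CD28 (2 µg/mL), which trigger the T cell receptor and its costimulator. The medium held IL-2 at 30 U/mL, 2-mercaptoethanol at 50 µM, non-essential amino acids and sodium pyruvate. The 3 control libraries had no treatment. The 3 acetate libraries came from cells that received the short-chain fatty acid acetate for 48 h at a concentration whose unit is written unusually and is read here as 5 mmol/L. When in the culture acetate was added is not given. The culture time is the same for both groups in the labels, although the series' design wording is of a contrast before and after treatment. Separate mice or cultures are not named for the libraries, so p-values measure their spread only, which may be technical.

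Libraries held 31098394 to 39140711 reads, and correlations of log2 values over all genes tested were 0.993 between libraries of a group and 0.983 to 0.986 between libraries of different groups. The markers of the labelled cell type were abundant. The summed FPKM of Cd8a, Cd8b1, Cd3e, Cd3d and Cd3g was 1195 to 1224 in control and 1255 to 1350 in acetate libraries. FPKM are reads per length of the gene, scaled by a size of the library. In at least some libraries the size behind the deposited values differed from the total of reads given above. The 3 CD4 T cell markers summed to 8.18 to 9.61 and 9.35 to 10.5, nearly all of it Cd40lg. The 3 B cell markers, the 5 myeloid and dendritic markers found, the 2 natural killer markers and the 2 erythroid markers each summed to at most 0.691 FPKM in any library, and Itgam and Siglech were listed at 0. In bulk samples such as these, a change in the share of cells of a kind and a change of RNA per cell cannot be told apart.

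Mitochondria keep a small genome whose proteins are all core parts of the respiratory chain and ATP synthase, and a separate ribosome is needed to translate them. Its ribosomal RNAs come from the mitochondrial genome, while every one of its proteins is encoded in the nucleus, made in the cytosol and imported. Many of the proteins descend from bacterial ribosomal proteins and others are particular to mitochondria. T cell activation is known to expand mitochondrial mass and translation, and in mouse CD8+ T cells mitochondrial translation has been tied to sustained killing. Transcripts of the mitochondrial genome were not analysed here.

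The promoters of these genes are known for sites of nuclear respiratory factor 1 (NRF1), of ETS family factors such as GABP (also called NRF2), and of YY1. Exact spellings of a site of each were searched on both strands of RefSeq promoters (GRCm38.p6), 250 bases before to 50 bases after the annotated start: GCGCATGCG for NRF1, CCGGAAG for ETS and AAGATGGC for YY1. The NRF1 spelling overlaps its own reverse complement, so a site of 10 letters can match on both strands, and the last letters of the ETS spelling are the first of the YY1 spelling. Of the 75 genes, 66 were matched to a promoter. These include 2 members that did not pass the abundance filter and were not tested, both with the ETS spelling. At least 1 spelling was present in 35 of them (53.0%), against 29.3% of the 7303 promoters of protein-coding genes tested here and 13.0% of all 27025 promoters. The ETS spelling was in 34.8% of the members' promoters (21.6% of genes tested, 9.12% of all promoters), the YY1 spelling in 18.2% (5.64% and 2.88%) and the NRF1 spelling in 10.6% (4.49% and 1.81%).

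The sequences below show these spellings in capitals, 5′ to 3′ on the gene's strand. For each spelling they show the member with the largest rise and the uncalled member whose change was nearest 0, followed by the members with the largest rise and the largest fall of all. The NRF1 spelling is shown in Mrpl17 (chr7:105811038-105811337, minus strand), which also holds an ETS spelling, and in Mrpl9 (chr3:94443086-94443385, plus strand), where it matches both strands.
Mrpl17: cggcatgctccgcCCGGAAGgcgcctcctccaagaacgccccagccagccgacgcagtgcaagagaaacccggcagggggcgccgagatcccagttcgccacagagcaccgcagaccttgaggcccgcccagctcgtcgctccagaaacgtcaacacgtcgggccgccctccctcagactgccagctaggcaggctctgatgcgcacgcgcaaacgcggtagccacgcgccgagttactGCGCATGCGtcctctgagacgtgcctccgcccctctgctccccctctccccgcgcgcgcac
Mrpl9: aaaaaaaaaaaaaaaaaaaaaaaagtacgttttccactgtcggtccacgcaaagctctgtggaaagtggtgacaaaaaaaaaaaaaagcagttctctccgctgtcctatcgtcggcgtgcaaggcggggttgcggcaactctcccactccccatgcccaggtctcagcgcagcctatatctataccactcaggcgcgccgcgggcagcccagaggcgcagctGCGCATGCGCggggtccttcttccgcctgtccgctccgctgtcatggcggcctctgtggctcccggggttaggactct
The ETS spelling is shown in Mrpl18 (chr17:12916042-12916341, minus strand) and, on the opposite strand, in Mrps33 (chr6:39810887-39811186, minus strand).
Mrpl18: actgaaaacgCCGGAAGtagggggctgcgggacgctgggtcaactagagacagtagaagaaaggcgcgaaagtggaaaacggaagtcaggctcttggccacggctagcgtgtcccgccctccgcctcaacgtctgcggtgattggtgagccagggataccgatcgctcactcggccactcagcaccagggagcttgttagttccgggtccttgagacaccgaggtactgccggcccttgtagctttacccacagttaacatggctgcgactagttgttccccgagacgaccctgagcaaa
Mrps33: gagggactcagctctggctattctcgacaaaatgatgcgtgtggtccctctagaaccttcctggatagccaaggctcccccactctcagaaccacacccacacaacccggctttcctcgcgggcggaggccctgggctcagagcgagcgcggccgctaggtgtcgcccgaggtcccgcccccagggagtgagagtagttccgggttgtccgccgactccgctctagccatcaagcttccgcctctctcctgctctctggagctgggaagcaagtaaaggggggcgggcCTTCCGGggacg
The YY1 spelling is shown just after the start of Mrpl49 (chr19:6057706-6058005, minus strand) and of Mrps18a (chr17:46110754-46111053, plus strand), which also holds an ETS spelling.
Mrpl49: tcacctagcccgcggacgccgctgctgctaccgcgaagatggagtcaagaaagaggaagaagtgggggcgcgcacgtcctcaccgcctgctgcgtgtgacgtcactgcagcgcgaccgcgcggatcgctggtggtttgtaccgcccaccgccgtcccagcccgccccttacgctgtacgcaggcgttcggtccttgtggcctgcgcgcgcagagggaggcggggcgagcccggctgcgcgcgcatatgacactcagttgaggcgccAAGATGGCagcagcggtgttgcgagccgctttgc
Mrps18a: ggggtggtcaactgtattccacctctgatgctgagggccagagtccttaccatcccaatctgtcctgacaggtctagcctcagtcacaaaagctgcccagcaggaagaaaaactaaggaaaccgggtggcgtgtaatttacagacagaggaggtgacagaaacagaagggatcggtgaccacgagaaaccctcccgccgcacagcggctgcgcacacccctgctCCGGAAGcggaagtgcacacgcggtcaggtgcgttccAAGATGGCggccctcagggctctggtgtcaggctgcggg
Mrpl12 (chr11:120484387-120484686, plus strand), the largest rise, held none of the spellings, and Mrpl27 (chr11:94653541-94653840, plus strand), the largest fall, held the ETS spelling.
Mrpl12: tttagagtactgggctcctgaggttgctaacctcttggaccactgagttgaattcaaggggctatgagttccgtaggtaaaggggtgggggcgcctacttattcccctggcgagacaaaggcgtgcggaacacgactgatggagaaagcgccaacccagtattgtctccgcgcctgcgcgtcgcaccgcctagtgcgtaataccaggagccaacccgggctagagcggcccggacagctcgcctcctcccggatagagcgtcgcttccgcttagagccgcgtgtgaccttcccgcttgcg
Mrpl27: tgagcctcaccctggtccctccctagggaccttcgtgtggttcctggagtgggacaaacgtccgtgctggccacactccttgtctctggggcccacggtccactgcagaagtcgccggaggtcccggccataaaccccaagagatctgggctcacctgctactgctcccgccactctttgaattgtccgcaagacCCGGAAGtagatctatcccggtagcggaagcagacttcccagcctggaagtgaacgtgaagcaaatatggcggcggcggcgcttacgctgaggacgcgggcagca

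The ETS spelling matched 27 times in 23 members and 22 of these matches lay wholly within 60 bases before to 50 after the start. The YY1 spelling matched once in each of 12 members. In 8 of them, Mrps27, Mrpl49, Mrps7, Mrps24, Mrpl42, Mrpl37, Mrps18a and Mrpl35, it lay after the start and on the gene's own strand. Its letters hold ATG, as a translation start does, and whether these matches are translation starts was not tested. A match is a description of letters, not a bound site. At least 1 spelling was present in 17 of the 32 promoters of members called higher with acetate (53.1%), in 15 of 29 of members with no call (51.7%) and in 1 of 3 of members called lower. These shares were not tested against each other.

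**Figure D1:**
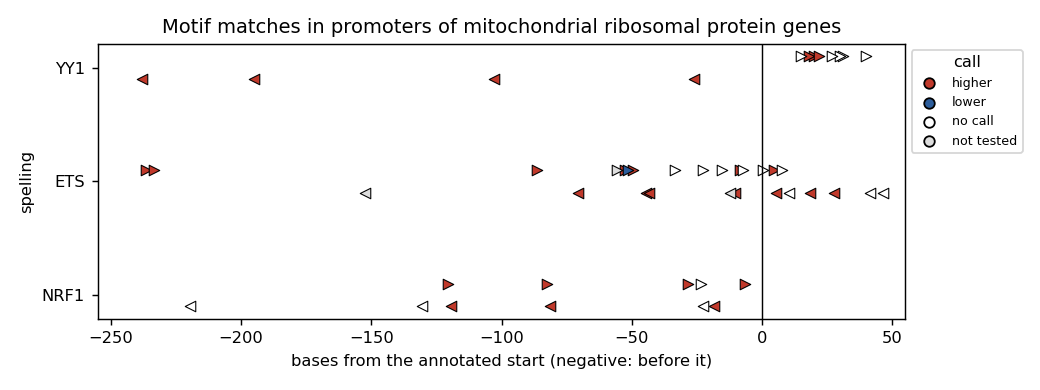
Position of each match to the 3 spellings in the promoters of the mitochondrial ribosomal protein genes, in bases from the annotated start (x axis), by factor (y axis). Triangles point right for matches on the gene's strand and left for the opposite strand, and the fill gives the call of the gene with acetate; the 8 YY1 matches after the start all point right.

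Nearly all calls among the mitochondrial ribosomal protein genes were toward higher levels with acetate, each of modest size. Of the 73 that passed the abundance filter (a mean of at least 1 FPKM), 35 were called higher, 4 were called lower and 34 had no call, where a call is an adjusted p under 0.05 in the test of limma, a linear model that shares its estimate of the spread across genes, over all 10867 genes tested. That is 47.9% higher and 5.48% lower. Of all genes tested, 22% (2393) were called higher and 16.9% (1836) lower. The median change of the members was 0.15 on the log2(FPKM + 1) scale, against 0.02 for all genes, whose quartiles were -0.13 and 0.16, and 60 of the 73 had a positive change. The members called higher had a median change of 0.29. In 41 members all 3 acetate values lay above all 3 control values, in 4 they lay below and in 28 the groups overlapped. Over all genes tested, 28.8% lay above and 23.1% below in this way.

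The split of calls depends on the scale. When each library was rescaled to a common sum of FPKM (TPM), calls over all genes turned from 2393 higher and 1836 lower to 1403 higher (12.9%) and 2452 lower (22.6%), and those of the members to 25 higher and 6 lower. With voom on reads recovered from the table, the calls were 2093 higher and 2527 lower over all genes, and 32 and 5 for the members. In every setting tried, 57 to 61 members lay above the median change of all genes. Of the 39 members called, 25 kept their call in all 15 alternatives, 24 of them higher and 1, Mrpl38, lower.

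**Figure D2:**
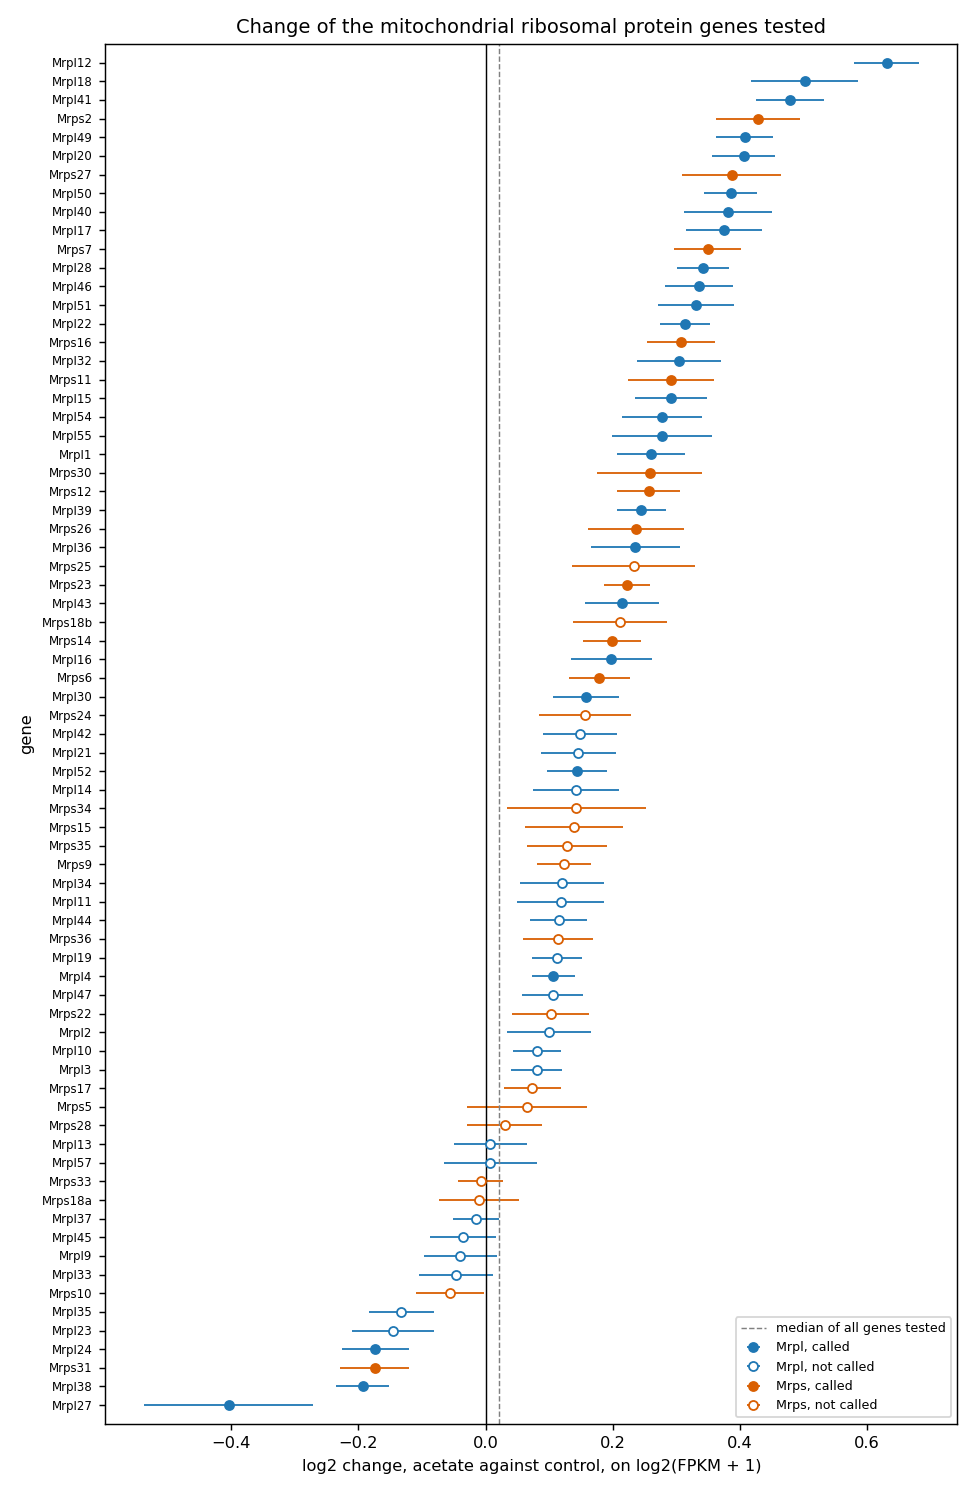
Change with acetate of each of the 73 mitochondrial ribosomal protein genes tested (x axis, log2(FPKM + 1), acetate minus control; bars, SE of the limma fit), ordered by size, blue for Mrpl and orange for Mrps, filled where the limma adjusted p was under 0.05. The dashed line is the median of all genes tested, 0.02; 60 of the 73 points lie above 0, from Mrpl12 at 0.63 to Mrpl27 at -0.40.

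Members ranged in mean level from 2.63 to 112.6 FPKM, with a median of 23.8, and the lowest library of any tested member held 364 reads. Of the 37 at or above the median level, 23 were called higher and 1 lower, and of the 36 below it, 12 and 3; this difference was not tested. Across members, Spearman's rho of the change with the level was 0.36 and with gene length -0.30 (n = 73 genes from the same 6 libraries, a description only). Annotated spans bear on single genes, since 34 members overlap another gene of the table and strand handling in the counting is not stated.

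Mrpl12 had the largest rise. It is the counterpart of the bacterial stalk protein that recruits translation factors, and in human cells its free form is also known to bind the mitochondrial RNA polymerase. In the table its identifier is MGP_C57BL6NJ_G0019896, of the C57BL/6NJ strain annotation, on chromosome 11 from 128731259 to 128735711, on the plus strand. This is not its GRCm38.p6 place, given with its promoter above, so positions from the table are printed only as the table gives them. Mrpl12 stood at 23.4, 24.8 and 24.7 FPKM in control libraries 1 to 3 and at 35.7, 38.9 and 39.9 FPKM in acetate libraries 1 to 3. The groups were far apart, with the lowest acetate value well above the highest control value. Its mean went from 24.3 ± 0.761 to 38.2 ± 2.23 FPKM (SD, n = 3 each), a log2 change of 0.63 (SE 0.051, limma adjusted p = 0.000216). The proteins at the base of the same stalk had no call. Mrpl10, which holds the Mrpl12 copies, had 26.9 ± 0.765 and 28.5 ± 0.652 FPKM (log2 change 0.08, limma adjusted p = 0.132), and Mrpl11 had 15.0 ± 0.740 and 16.4 ± 1.54 FPKM (0.12, adjusted p = 0.213).

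Mrpl18 and Mrpl40 belong to the central protuberance, the crown of the large subunit. Mrpl18 stood at 31.5, 33.6 and 28.0 FPKM in control and at 39.9, 47.7 and 45.4 FPKM in acetate libraries. The groups did not overlap and the log2 change was 0.50 (SE 0.084, limma adjusted p = 0.00332). The Mrpl18 span overlaps Tcp1, a chaperonin subunit gene on the opposite strand that averaged 129.5 FPKM, and reads of the pair cannot be told apart where strand was not used. Mrpl40 stood at 42.7, 47.4 and 40.5 FPKM in control and at 53.3, 60.9 and 56.7 FPKM in acetate libraries, again with no overlap (log2 change 0.38, limma adjusted p = 0.00460). Not every protein of the crown moved upward. Mrpl38, another of its mitochondria-specific proteins, stood at 19.6, 18.7 and 19.8 FPKM in control and at 17.0, 16.2 and 17.2 FPKM in acetate libraries. All 3 acetate values lay below all 3 control values, by a small amount (log2 change -0.19, SE 0.041, limma adjusted p = 0.00933). It overlaps no other gene of the table and was called lower in all 15 alternatives. The gathering of members by their place in the ribosome, here and at the tunnel exit below, was made after their values were seen and carries no test.

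The other large-subunit genes with large rises were Mrpl41, Mrpl49, Mrpl20, Mrpl50 and Mrpl17. Mrpl41, a mitochondria-specific protein whose human form is also known to bind Bcl-2, stood at 54.7, 51.2 and 51.2 FPKM in control and at 70.0, 78.8 and 71.5 FPKM in acetate libraries. The gap between the groups was larger than the spread within either (log2 change 0.48, SE 0.054, limma adjusted p = 0.000700). Mrpl20, counterpart of a bacterial protein that binds early in assembly of the large subunit, stood at 31.8, 35.0 and 34.3 FPKM and at 42.8, 45.4 and 46.6 FPKM. Every acetate library exceeded every control library (log2 change 0.41, limma adjusted p = 0.00101). Mrpl49, mitochondria-specific, stood at 23.7, 23.4 and 22.6 FPKM and at 29.5, 32.2 and 31.7 FPKM (0.41, adjusted p = 0.000640); its span overlaps Syvn1. Mrpl50, also mitochondria-specific, rose from 35.5 ± 0.609 to 46.7 ± 2.06 FPKM (0.39, limma adjusted p = 0.000623). Mrpl17, which lies near the exit of the peptide tunnel, rose from 17.0 ± 0.825 to 22.3 ± 1.55 FPKM (0.38, limma adjusted p = 0.00274). All 10 members with the largest rises kept their call in all 15 alternatives.

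**Figure D3:**
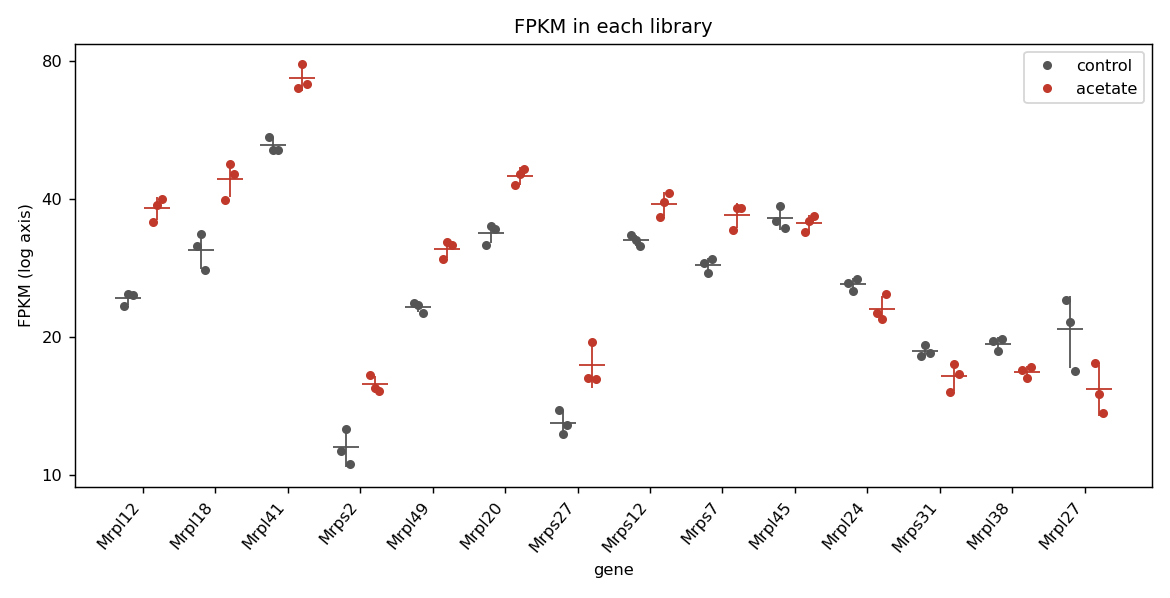
FPKM in each library (log y axis) of members described in the text (x axis), grey for the 3 control and red for the 3 acetate libraries; horizontal lines are group means and vertical lines the SD. Acetate values lie above control values from Mrpl12 to Mrps7, overlap them in Mrpl45 and Mrpl27, and lie below them in Mrpl24, Mrps31 and Mrpl38.

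At the tunnel exit, where the new peptide leaves the ribosome beside the inner membrane, members differed. Mrpl22 was called higher with Mrpl17, going from 34.9 ± 0.731 to 43.6 ± 1.53 FPKM (SD, n = 3, log2 change 0.31, limma adjusted p = 0.00107). Mrpl24 stood at 26.2, 25.2 and 26.8 FPKM in control and at 22.5, 21.8 and 24.7 FPKM in acetate libraries. Its groups did not overlap, with acetate 3 just under the lowest control, and the call was lower (log2 change -0.17, limma adjusted p = 0.0355). The call of Mrpl24, whose span overlaps Rrnad1, ended without any of control 1, 2 or 3 or acetate 1 or 2 (adjusted p up to 0.116). This call also ended with no abundance filter and with no trend in the fit. Mrpl45, which anchors the ribosome to the inner membrane, had 36.4 ± 2.05 and 35.4 ± 1.50 FPKM (log2 change -0.03, limma adjusted p = 0.629). Mrpl23 (log2 change -0.15, limma adjusted p = 0.113) and Mrpl47 (0.11, adjusted p = 0.120) had no call. Mrpl23 passed the threshold after TPM rescaling (adjusted p = 0.0245) and without control 3 (0.0302). Mrpl47 overlaps Actl6a and Ndufb5.

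Calls varied among further large-subunit members. Mrpl2, whose bacterial counterpart helps build the peptidyl transferase centre, had 37.5 ± 3.49 FPKM in control and 40.2 ± 1.03 in acetate libraries (log2 change 0.10, limma adjusted p = 0.268). Mrpl3, which reaches toward the same centre, had 12.5 ± 0.282 and 13.2 ± 0.329 FPKM (0.08, limma adjusted p = 0.149). Neither passed the test. Mrpl16, which lies beside the bound transfer RNA, was called higher from 47.8 ± 3.55 to 54.9 ± 3.08 FPKM (0.20, limma adjusted p = 0.0409), but not without control 1 or 3 or acetate 2 or 3 (adjusted p up to 0.129). Mrpl36, a small zinc-binding protein and among the most abundant members, went from 70.9 ± 5.80 to 83.5 ± 5.52 FPKM (0.24, limma adjusted p = 0.0327). Its call ended without control 1 or 3 or acetate 2 or 3 (adjusted p up to 0.0872), and calls of Mrpl16 and Mrpl36 both ended after TPM rescaling (limma adjusted p = 0.131 and 0.0811). Both calls also ended with no abundance filter, quantile normalization, cyclic loess and no trend in the fit. That of Mrpl16 ended with median-ratio scaling too. Mrpl1, of the stalk opposite that of Mrpl12, rose from 21.6 ± 1.55 to 26.0 ± 0.423 FPKM (0.26, limma adjusted p = 0.00757). Mrpl44, an RNase III-like protein, had 23.1 ± 0.208 and 25.1 ± 1.30 FPKM and no call (0.12, limma adjusted p = 0.0782), and passed the threshold without acetate 1 (adjusted p = 0.0185). Mrpl32, which must be cut by the m-AAA protease of the inner membrane before it can be built in, stood at 61.7, 69.3 and 59.1 FPKM in control and at 76.2, 83.1 and 75.8 FPKM in acetate libraries. It rose with no overlap of the groups (0.30, limma adjusted p = 0.00939).

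In the small subunit, Mrps2 had the largest rise. It is the counterpart of a bacterial protein that sits between the head and the body of the subunit. It stood at 11.3, 12.6 and 10.5 FPKM in control and at 16.5, 15.5 and 15.2 FPKM in acetate libraries. The groups were well apart (log2 change 0.43, SE 0.066, limma adjusted p = 0.00247). Mrps27, an RNA-binding protein with pentatricopeptide repeats, stood at 13.8, 12.3 and 12.8 FPKM and at 16.3, 19.5 and 16.2 FPKM. Acetate library 2 was the highest by a margin, and the other two acetate libraries still lay above all controls (0.39, SE 0.078, limma adjusted p = 0.00720). Mrps7, a protein of the head, stood at 29.0, 27.6 and 29.6 FPKM and at 34.3, 38.2 and 38.3 FPKM (0.35, limma adjusted p = 0.00231); its span overlaps Mif4gd and Gga3. Mrps12, which lies at the decoding centre where codon and anticodon are matched, stood at 33.4, 32.5 and 31.6 FPKM and at 36.6, 39.4 and 41.2 FPKM. It rose by 0.26 on the log2 scale (limma adjusted p = 0.00631). Mrps16, the most abundant member, stood at 94.5, 106.5 and 100.9 FPKM and at 119.0, 125.9 and 129.1 FPKM. All acetate values again exceeded all control values (0.31, limma adjusted p = 0.00398).

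Other small-subunit genes had no call or a call that depended on the libraries. Mrps18b had 13.4 ± 1.42 and 15.6 ± 0.808 FPKM (log2 change 0.21, limma adjusted p = 0.0568), and passed the threshold without control 2 (adjusted p = 0.0103). Mrps28 had 25.4 ± 1.06 and 26.0 ± 1.98 FPKM (0.03, limma adjusted p = 0.724). Mrps5, the least abundant member tested, had 2.55 ± 0.159 and 2.72 ± 0.418 FPKM (0.07, limma adjusted p = 0.618). In all 3 of these genes the groups overlapped. Mrps31, mitochondria-specific, stood at 18.2, 19.2 and 18.4 FPKM in control and at 15.2, 17.4 and 16.6 FPKM in acetate libraries. It is the small-subunit member called lower (log2 change -0.17, limma adjusted p = 0.0382), with all acetate values below all control values. That call ended without any of control 1, 2 or 3 or acetate 1 or 3 (adjusted p up to 0.109). The same held with no abundance filter and with no trend in the fit. Across the family, members called lower numbered 4 with all libraries, 1 without control 1 or control 2, 2 without acetate 1, 2 or 3, and 4 without control 3. The 4 without control 3 were not the same genes. Mrpl24 and Mrps31 lost their calls there, and Mrpl23 and Mrpl35 gained one.

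Mrpl27 was called lower but its groups overlapped, so it fell outside the rule by which members are named and was chosen after its values were seen. It is the counterpart of a bacterial protein that reaches the catalytic centre. It stood at 24.1, 21.5 and 16.8 FPKM in control and at 17.5, 15.0 and 13.7 FPKM in acetate libraries. Control 3 lay below acetate 1, and values spread widely within both groups (log2 change -0.40, SE 0.133, limma adjusted p = 0.0460). The call ended without control 1 or 2 or acetate 2 or 3 (adjusted p up to 0.129), and the span overlaps Eme1. The call was also lost with no abundance filter and with no trend in the fit. Mrpl35, also chosen after its values were seen, had 17.8 ± 1.00 and 16.2 ± 0.604 FPKM with all acetate values below all control values (-0.13, limma adjusted p = 0.0797). It had no call as deposited and passed the threshold after TPM rescaling (adjusted p = 0.00982), median-ratio scaling, quantile normalization and cyclic loess (0.0297), with voom (0.0104) and without control 3 (0.0434).

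Several symbols do not match the place or role of the protein. Mrps30 and Mrps18a carry small-subunit symbols but belong to the large subunit in structures of the mammalian ribosome. Mrps30 went from 25.2 ± 1.98 to 30.4 ± 3.27 FPKM (log2 change 0.26, limma adjusted p = 0.0419), and its call ended without control 1 or 3 or acetate 2 (adjusted p up to 0.120) and after TPM rescaling (0.0951). That call was also lost with no abundance filter, median-ratio scaling, quantile normalization, cyclic loess and no trend in the fit. Mrps18a had 9.20 ± 0.633 and 9.12 ± 0.569 FPKM (-0.01, limma adjusted p = 0.917). Mrps36, known as a subunit of the 2-oxoglutarate dehydrogenase complex and not of the ribosome, had 31.1 ± 1.98 and 33.7 ± 1.47 FPKM (0.11, limma adjusted p = 0.139) and passed the threshold without control 2 (adjusted p = 0.0498). Mrps18a, Mrps18b and Mrps18c are related genes, and how reads they share were counted is not given in the sources used here. Mrps18c did not pass the abundance filter. It stood at 0.150, 0.228 and 0.160 FPKM in control and at 0.147, 0.214 and 0.511 FPKM in acetate libraries, with 6 to 19 reads a library. The groups overlapped and acetate library 3 was the highest. Mrpl53 was listed at 0 in every library, with 0 reads. Mrpl42, the most abundant member after Mrps16, had 99.9 ± 7.33 and 110.7 ± 4.14 FPKM and no call (0.15, limma adjusted p = 0.0809), and passed the threshold without control 2 (adjusted p = 0.0251).

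Mrpl46 and Mrps11 lie on opposite strands of chromosome 7 with overlapping ends. Both were chosen for mention after their values were seen. Mrpl46 went from 20.5 ± 0.861 to 26.2 ± 1.58 FPKM (log2 change 0.34, limma adjusted p = 0.00279) and Mrps11 from 9.14 ± 0.614 to 11.4 ± 0.871 FPKM (0.29, limma adjusted p = 0.0129). Reads in the shared stretch cannot be assigned without strand, so the counts of both may hold the same reads. Among the 39 members that overlap no other gene of the table, 22 were called higher and 2 lower (56.4% and 5.13%), and among the 34 that overlap another gene, 13 and 2 (38.2% and 5.88%).

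The large and small subunits had close median changes. Of 46 tested Mrpl genes, 24 were called higher, 3 lower and 19 had no call (52.2% higher), with a median log2 change of 0.15 and quartiles of 0.08 and 0.31. Of 27 tested Mrps genes, 11 were called higher, 1 lower and 15 had no call (40.7% higher), with a median of 0.16 and quartiles of 0.09 and 0.25. The difference between the subunits was not tested. Against these counts, 22% of all genes tested were called higher. With Mrps30 and Mrps18a moved to the large subunit and Mrps36 set aside, 25 of 48 large-subunit and 10 of 24 small-subunit genes were called higher, with medians of 0.15 and 0.17.

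Summed over its genes, each subunit was higher in every acetate library than in any control library. The Mrpl sum was 1256, 1299.8 and 1233 FPKM in control libraries 1 to 3 and 1407, 1499 and 1498 FPKM in acetate libraries 1 to 3. Its mean went from 1263 ± 34.1 to 1468 ± 53.1 FPKM (SD, n = 3), 16.2% higher. The Mrps sum was 622, 646 and 615 FPKM in control and 694, 734 and 727 FPKM in acetate libraries. Its mean went from 628 ± 15.8 to 718 ± 21.4 FPKM, 14.4% higher. The ratio of the Mrpl to the Mrps sum was 2.02, 2.01 and 2.00 in control and 2.03, 2.04 and 2.06 in acetate libraries. It was thus 1.59% higher on average (2.01 ± 0.00737 and 2.04 ± 0.0163), with no overlap. The groups did overlap when subunits were assigned by structure (2.31 ± 0.0155 and 2.34 ± 0.0189) and when recovered reads were summed in place of FPKM (1.94 ± 0.0216 and 1.97 ± 0.0223). No test was made of the sums or the ratio. The total of all FPKM also differed between groups, at 352027 to 363385 in control and 365765 to 384438 in acetate libraries. The sums were not rescaled to it, and its part in them was not tested. TPM rescaling was applied to single genes only. It gave median log2 changes of 0.07 for Mrpl, 0.08 for Mrps and -0.05 for all genes tested.

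**Figure D4:**
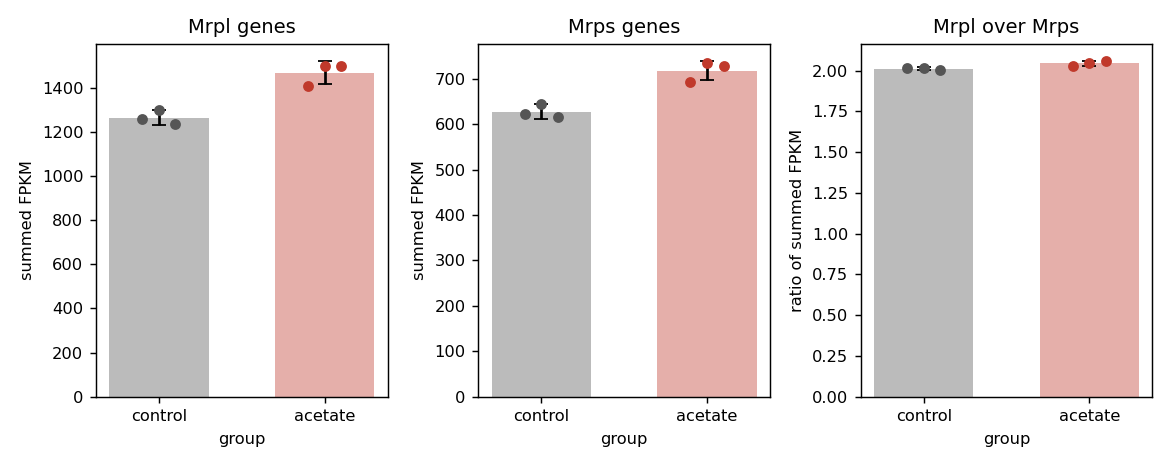
Summed FPKM of the Mrpl genes (left), of the Mrps genes (middle) and their ratio (right) in each library (points), with group means (bars) and SD (whiskers), n = 3 control and 3 acetate libraries. Both sums lie higher in all acetate libraries, by 16.2% and 14.4% on average, while the ratio differs by 1.59%. The total of all FPKM, to which the sums were not rescaled, was also higher in all acetate libraries.

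Genes were also divided by descent. Of 43 tested members with a bacterial counterpart, 20 were called higher and 2 lower, with a median log2 change of 0.14. Of 26 mitochondria-specific members, 14 were called higher and 2 lower, with a median of 0.22. Within Mrpl genes the median was 0.12 for the 29 with a bacterial counterpart and 0.23 for the 16 that are mitochondria-specific. Within Mrps genes the medians were 0.17 (n = 14) and 0.18 (n = 10). Members not assigned to either class were left out. Over all genes tested, 22% were called higher and 16.9% lower. None of these differences was tested.

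**Figure D5:**
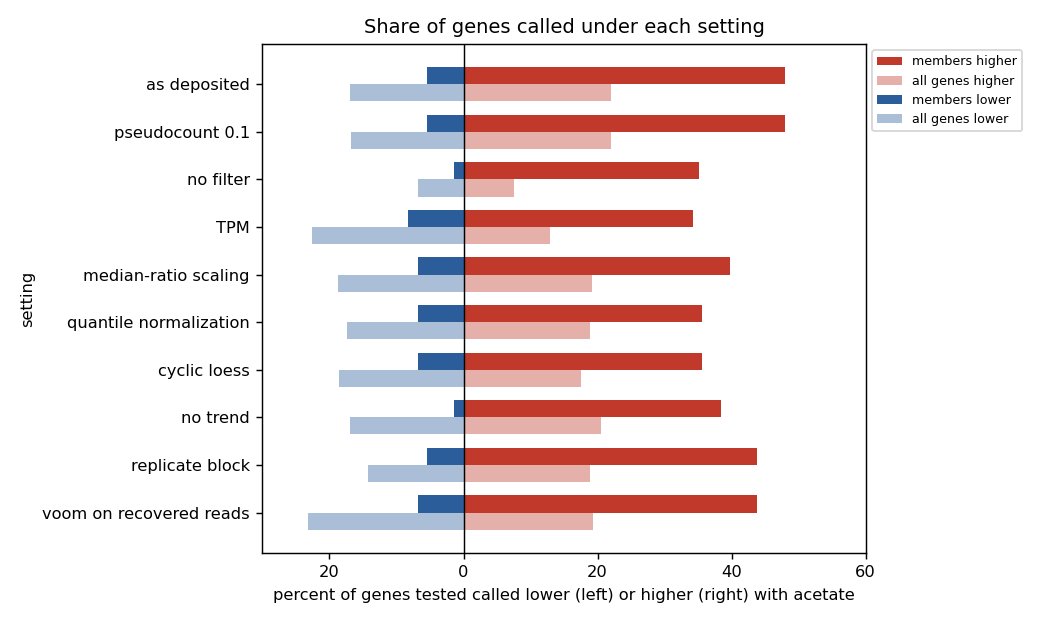
Percent of genes tested that were called higher (right of 0) or lower (left of 0) with acetate under each setting (y axis), dark bars for the mitochondrial ribosomal protein genes and pale bars for all genes tested. The members' share called higher exceeds that of all genes in every setting drawn, from 47.9% as deposited to 34.2% after TPM rescaling, where all genes have 12.9%.

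Mitochondrial ribosomal proteins whose symbols do not begin with Mrp were also listed. Of 6 tested, 3 were called higher and 0 lower, with a median log2 change of 0.21. The shares over all genes tested were 22% and 16.9%. Ptcd3, an RNA-binding protein of the small subunit, stood at 16.3, 16.7 and 17.6 FPKM in control and at 20.0, 20.0 and 20.3 FPKM in acetate libraries (0.24, limma adjusted p = 0.00335). Aurkaip1 went from 42.1 ± 1.91 to 50.9 ± 5.24 FPKM (0.26, limma adjusted p = 0.0280) and Chchd1 from 83.9 ± 4.81 to 94.8 ± 5.29 FPKM (0.17, adjusted p = 0.0463). Ptcd3 kept its call in every alternative. The calls of Aurkaip1 and Chchd1 ended without control 1 or 3 or acetate 2 or 3 (limma adjusted p up to 0.0890 and 0.137), and that of Chchd1 also after TPM rescaling. Both also ended with no abundance filter and with cyclic loess, and Chchd1 lost its call in 12 alternatives. Dap3, a GTP-binding protein of the small subunit (0.08, limma adjusted p = 0.198), Gadd45gip1 (0.24, adjusted p = 0.0677) and Ict1, a release factor built into the large subunit (-0.06, adjusted p = 0.642), had no call.

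Genes that build or serve the mitochondrial ribosome had median changes near that of all genes (0.02). Calls over all genes tested were 22% higher and 16.9% lower. Of 23 tested genes for ribosome assembly and rRNA modification, 5 were called higher, 4 lower and 14 had no call, with a median log2 change of 0.05. Mpv17l2, an inner membrane protein needed for assembly, stood at 27.2, 26.9 and 24.8 FPKM in control and at 35.3, 38.7 and 38.4 FPKM in acetate libraries. That was the largest rise of the list (0.50, limma adjusted p = 0.000596). Noa1, a GTPase of assembly, rose from 13.4 ± 0.787 to 18.0 ± 0.546 FPKM (0.41, limma adjusted p = 0.00106), and Fastkd2, which binds the large-subunit rRNA, from 7.20 ± 0.436 to 8.67 ± 0.397 FPKM (0.24, limma adjusted p = 0.0144; 0.0504 without acetate 2, and no call after TPM rescaling). The list for translation held 17 tested genes, not all of them translation factors. Of these, 2 were called higher, 2 lower and 13 had no call, with a median of 0.00. Gfm1, the elongation factor that moves the ribosome along, rose from 31.1 ± 0.842 to 37.7 ± 0.922 FPKM (0.27, limma adjusted p = 0.00171). Gatc, a subunit of the enzyme that completes glutaminyl transfer RNA, fell from 17.0 ± 0.226 to 14.7 ± 0.674 FPKM (-0.20, limma adjusted p = 0.00994). Letm1, an ion exchange protein of the inner membrane, was called higher (0.21, limma adjusted p = 0.0166), but not after TPM rescaling or without control 3 or acetate 2 (adjusted p up to 0.0587 without these libraries). The difference between these lists and the ribosomal proteins was not tested.

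Beside the 22% of all genes called higher and the 16.9% called lower, the lists of mitochondrial transcription, RNA stability and protein import were as follows, with no test of the difference. Of 16 tested genes of transcription and RNA stability, 11 were called higher, 1 lower and 4 had no call, with a median log2 change of 0.20. Elac2, which trims transfer RNA ends, rose from 38.6 ± 1.52 to 49.1 ± 2.71 FPKM (0.34, limma adjusted p = 0.00216), and Slirp, which stabilizes mitochondrial messages, from 17.6 ± 0.447 to 22.1 ± 1.20 FPKM (0.31, limma adjusted p = 0.00242). Tefm, the elongation factor of mitochondrial transcription, moved the other way. It stood at 6.41, 7.37 and 7.22 FPKM in control and at 5.04, 4.87 and 5.08 FPKM in acetate libraries (-0.41, limma adjusted p = 0.00187). Of 18 tested import genes, 12 were called higher, 1 lower and 5 had no call, with a median of 0.24. Timm23, the inner membrane channel, rose from 84.2 ± 1.07 to 113.9 ± 7.72 FPKM (0.43, limma adjusted p = 0.000964). The outer membrane receptors Tomm22 and Tomm70a rose by 0.35 and 0.26 on the log2 scale (limma adjusted p = 0.000976 and 0.00155). After TPM rescaling, calls of higher ended for Lrpprc, Grsf1, Supv3l1 and Mtpap of the first list and for Pmpcb, Timm10 and Timm22 of the second.

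The mitochondrial proteases were split. Of 7 tested, 3 were called higher, 2 lower and 2 had no call, with a median log2 change of -0.08. Over all genes tested, 22% were called higher and 16.9% lower. Lonp1, the matrix protease that clears damaged and unassembled proteins, stood at 151.5, 142.6 and 140.4 FPKM in control and at 81.0, 79.7 and 88.8 FPKM in acetate libraries. The groups were far apart (-0.79, SE 0.052, limma adjusted p = 0.000120). Spg7, a subunit of the m-AAA protease that matures Mrpl32, fell from 13.7 ± 0.413 to 9.95 ± 0.273 FPKM (-0.42, limma adjusted p = 0.000456). Afg3l2, its partner subunit, was called higher (0.16, limma adjusted p = 0.0132), though not after TPM rescaling, quantile normalization or cyclic loess, and the higher call of Yme1l1 ended in the same settings. Clpx, the unfolding subunit of the ClpXP protease, rose from 14.9 ± 0.430 to 19.2 ± 0.771 FPKM (0.35, limma adjusted p = 0.00111).

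Among the regulators tied to mitochondrial biogenesis, 3 of 7 tested were called higher and 0 lower, with a median log2 change of 0.11. The shares over all genes tested were 22% and 16.9%. Myc, a growth regulator of activated T cells, stood at 107.7, 108.2 and 102.0 FPKM in control and at 143.9, 137.7 and 131.0 FPKM in acetate libraries (0.37, limma adjusted p = 0.00105). Pprc1, a coactivator of nuclear respiratory factors, rose from 15.2 ± 0.876 to 19.5 ± 1.00 FPKM (0.34, limma adjusted p = 0.00300). Yy1 rose from 57.2 ± 1.15 to 64.5 ± 1.02 FPKM (0.17, limma adjusted p = 0.00697), a call that ended after TPM rescaling, quantile normalization and cyclic loess. For the other spellings, the genes looked at were Nrf1, Gabpa and Gabpb1, and none had a call. Other ETS family genes, whose factors may share the ETS spelling, are not described here. Nrf1 had 3.22 ± 0.164 and 3.01 ± 0.0618 FPKM (-0.07, limma adjusted p = 0.366). Gabpa had 17.2 ± 0.619 and 16.04 ± 0.0958 FPKM (-0.09, limma adjusted p = 0.107). Gabpb1, of the other GABP subunit, had 7.26 ± 0.369 and 7.87 ± 0.0792 FPKM (0.10, limma adjusted p = 0.128). All acetate values lay below all control values for Nrf1 and Gabpa, as in 23.1% of all genes tested. For Gabpb1 they lay above, as in 28.8%.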

How the data were processed

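RNA of 6 libraries, 3 control and 3 acetate, was measured by paired-end sequencing on an Illumina NovaSeq from TruSeq libraries, per the labels' protocols. The tools named per the submitters' processing notes are cutadapt 1.18, which trims reads, and the aligner HISAT2 2.1.0, with build mm10. For the counter, its annotation and its treatment of strand and shared reads nothing is stated in the sources used here. The authors deposited FPKM for 41095 rows. FPKM times gene length gave whole reads for 100% of values (tolerance 0.01), from 31098394 to 39140711 per library. Read depth sets counting error only.

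Values were transformed as log2(FPKM + 1), which understates changes of low genes. The 10867 genes that averaged 1 FPKM or more were compared with limma 3.58.1 (R 4.3.3; lmFit, eBayes with trend, group only, two-sided, Benjamini-Hochberg over all genes tested; call at an adjusted p under 0.05). Each p in the text is from this fit, unless an alternative or a library left out is named beside it. The script was run on simulated data as a check of the code only. The simulation differed from these data in its share of changed genes and says nothing about the calls here. Members are named if among the 10 largest called rises or falls without overlap, on a panel of 21 symbols, or among the 3 highest or 3 lowest in level; from other lists, up to 3 called genes of lowest p, and every one of the ribosomal proteins with other symbols. Additional names are of genes that a paragraph's role or overlap calls for, chosen after their values were seen. The members and lists were chosen with earlier results of these data known. Alternatives were another pseudocount (0.1), no filter, TPM, median-ratio, quantile and cyclic loess scaling, no trend, a replicate block, voom on recovered reads and leaving out each library. Promoters are from RefSeq (GRCm38.p6), matched by symbol and chromosome, with 1 promoter a gene in shares.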

Additional observations from a re-analysis of the deposited data

How the results depend on the processing

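Members called higher numbered 26 to 38 when each library was left out in turn and members called lower 1 to 4, against 35 and 4 with all libraries. Without the abundance filter 1 member was called lower, as without the trend. After TPM rescaling 1403 genes of all tested were called higher. The members' median log2 change was positive in every setting, 0.07 after TPM rescaling at the lowest. Over the 39 members that overlap no other gene of the table, a subset added after seeing the data, 22 were called higher and 2 lower. No sign of a called member turned in any of these alternatives. With the replicate number as a block (replicate block), 32 members were called higher and 4 lower, and 2052 and 1548 of all genes. The numbers share no known source, and same-numbered libraries deviated with correlations of -0.05, 0.03 and -0.04. With 3 libraries a group such correlations cannot show whether libraries were paired, which the labels do not say. With 3 libraries a group, calls near the threshold depend on single libraries: 26 of the 39 members called kept their call in all 6 fits that left out a library.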
